A study of Mus musculus with 125 samples.

Results

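Perp, Krt8 and Krt18 were followed through single 2-cell mouse embryos, as 3 of the 43421 genes in the deposited count table. They are the genes whose identifiers matched those symbols, and they were chosen by their counts, as epithelial transcripts with higher values in parthenotes. The values that chose them were those of the C57BL/6 parthenotes, of the 2PN embryos and of the uniparental 1PN embryos of the cross C57BL/6 xJF1/Ms. The levels in those 3 groups are therefore given as a description, without a test.

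Perp encodes a membrane protein of the PMP22 family. In mouse it is a target of the transcription factors p53 and p63 and a component of desmosomes, the junctions that anchor keratin filaments at cell borders. Krt8 is a type II keratin and Krt18 a type I keratin. These proteins polymerise with each other into the intermediate filaments of simple epithelia, and in the mouse embryo they are known as early markers of the trophectoderm, the first epithelium, which forms after the 2-cell stage.

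The embryos came from zygotes in which the parental genomes lay in separate pronuclei (2PN) or in which 1 pronucleus was seen (1PN), and from parthenotes, which carry no paternal genome. The parthenotes were C57BL/6 (31 embryos). The cross written C57BL/6 xJF1/Ms gave 8 1PN embryos that the submitters called parthenotes in silico, here named uniparental 1PN, 11 1PN embryos with the in silico call 1PN, here named biparental 1PN, and 43 2PN embryos. The cross written JF1/MsxC57BL/6 gave 4, 3 and 21 embryos in the same order. The labels carry no further genotype or agent. The labels' protocol describes selection of zygotes 10 h after fertilization, removal of the second polar body and collection at 34 h, and it is the same text for the parthenotes, whose activation it does not describe. Neither the maternal strain of a cross nor shared parents of embryos can be read from the labels, and p-values reflect the spread between the embryos as sampled. Parthenotes differ from the 2PN hybrids in strain as well as in parental genomes, and these cannot be told apart. Each library is a whole embryo, so a change in 1 blastomere and a smaller change in both cannot be told apart either.

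Library totals of the 121 embryos ran from 533276 to 4887274 counts with a median of 3392406. The medians were 3185905 in parthenotes, 3445801, 3563885 and 3867740 in uniparental 1PN, biparental 1PN and 2PN embryos of C57BL/6 xJF1/Ms, and 2526649, 2976989 and 2522056 in the same groups of JF1/MsxC57BL/6. These 3 genes gave at most 271 counts in an embryo, so a value of 0 means that the gene was not detectable at this depth. At the median depth 1 count equals 0.295 CPM. CPM are counts scaled to a library total of 1000000, without correction for gene length, so levels are compared between embryos and not between genes.

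Krt8 and Krt18 lie on chromosome 15 of GRCm38, at chr15:101996711-102004342 and chr15:102028216-102032026. They are transcribed in opposite directions, away from each other, with 23873 bases and 2 annotated long non-coding RNAs between them. Perp lies at chr10:18845071-18857073. The promoters of the keratin pair are shown because the pair is known to be made together. They are RefSeq sequences of GRCm38.p6, from 250 bases before to 10 bases after the annotated start, at chr15:102004333-102004592 on the minus strand for Krt8 and chr15:102027966-102028225 on the plus strand for Krt18, with motif matches in capitals.
Krt8: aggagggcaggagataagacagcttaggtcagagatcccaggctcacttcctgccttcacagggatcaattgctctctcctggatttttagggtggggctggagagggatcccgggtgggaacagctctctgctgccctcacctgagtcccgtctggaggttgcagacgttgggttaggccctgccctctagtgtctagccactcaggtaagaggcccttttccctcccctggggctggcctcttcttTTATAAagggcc
Krt18: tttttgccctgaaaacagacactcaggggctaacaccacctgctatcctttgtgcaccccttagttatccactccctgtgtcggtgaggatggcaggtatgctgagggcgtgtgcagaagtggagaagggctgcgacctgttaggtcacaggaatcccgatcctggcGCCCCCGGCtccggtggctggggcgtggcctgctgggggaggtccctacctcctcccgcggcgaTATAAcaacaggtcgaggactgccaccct
The motifs searched on both strands were TATAA for the TATA box, TGANTCA for AP-1, GGGCGG for the GC box of Sp1, GGAATG for TEAD factors and GCCNNNGGC for AP-2. Krt18 held TATAA at positions -19 to -15 and an AP-2 match at -83 to -75, counted from 1 at the start with no position 0. Krt8 held TATAA at -1 to 4 and, overlapping it, its reverse complement at -2 to 3. No letters of the other motifs were in either window. Of 32851 RefSeq promoters of the same length, 23.3% held the TATA letters, 14.2% those of AP-2, 7.03% those of AP-1, 33.4% those of the GC box and 13.2% those of TEAD factors. A match is a description of letters and not a bound site.

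Perp was the member with the widest separation between parthenotes and 2PN embryos. Its level averaged 23.05 ± 22.55 CPM in parthenotes (SD, n = 31), with a lowest value of 0, a median of 18.1 and a highest of 95.8 CPM. In the 8 uniparental 1PN embryos of C57BL/6 xJF1/Ms it was 0 in 4 and 2.39, 4.72, 5.26 and 6.99 CPM in the others, a mean of 2.42 ± 2.87 CPM. None of these 8 reached the parthenote median. In the 11 biparental 1PN embryos it averaged 0.319 ± 0.676 CPM with a median of 0 and a highest value of 2.06. In the 43 2PN embryos it averaged 0.441 ± 1.44 CPM, with a median of 0 and a highest value of 7.45 CPM. Most parthenotes were high and most 2PN embryos were at 0: 24 of 31 parthenotes lay above the highest 2PN embryo, and 30 of 31 above the 2PN median, so the groups overlapped through a low tail of parthenotes. The 2 highest parthenotes, at 95.8 and 89.8 CPM, held 25.97% of the summed Perp CPM of the group.

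In the reciprocal cross Perp was at 0 in 2 of 4 uniparental 1PN embryos and at 0.653 and 16.7 CPM in the others, a mean of 4.34 CPM that was 0.218 CPM without the highest embryo. The 3 biparental 1PN embryos stood at 0, 0 and 0.336 CPM. The 21 2PN embryos averaged 0.776 ± 2.57 CPM with a median of 0 and a highest value of 11.3 CPM. That value came from 6 counts in 2PN embryo 21, a library of 533276 counts, and without it the mean was 0.252 ± 0.931 CPM (SD, n = 20). Pooled over embryos, Perp stood at 0.265 CPM in 2PN embryos of JF1/MsxC57BL/6 and at 0.439 CPM in those of C57BL/6 xJF1/Ms. By means the order was parthenotes, uniparental 1PN of JF1/MsxC57BL/6, uniparental 1PN of C57BL/6 xJF1/Ms, 2PN of JF1/MsxC57BL/6, 2PN of C57BL/6 xJF1/Ms, biparental 1PN of C57BL/6 xJF1/Ms and biparental 1PN of JF1/MsxC57BL/6. Each step in this order was smaller than the SD of the higher group, and the places of the uniparental 1PN and 2PN embryos of JF1/MsxC57BL/6 rested on the single embryos named above.

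**Figure D1:**
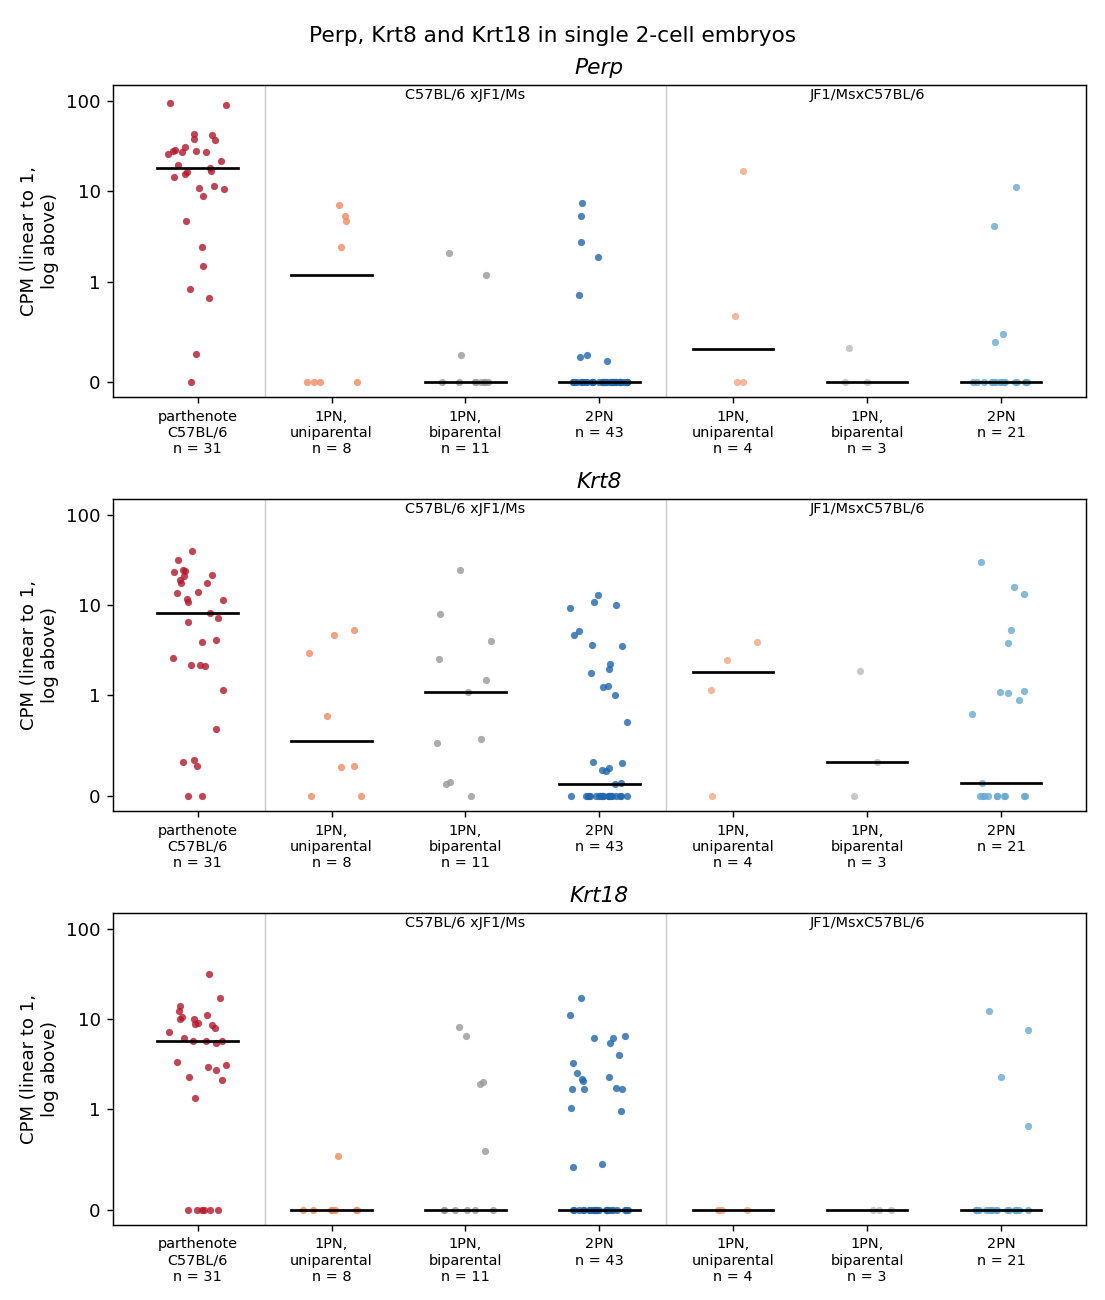
Level of each gene in each embryo, in CPM on an axis that is linear up to 1 and logarithmic above, for parthenotes and for uniparental 1PN, biparental 1PN and 2PN embryos of both crosses. Points are embryos and bars are medians; the parthenote medians stand at 18.1, 8.24 and 5.66 CPM for Perp, Krt8 and Krt18, and most 2PN embryos lie at or near 0.

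Krt8 was also highest in parthenotes, but it was counted in about as many 2PN embryos as not. It averaged 11.02 ± 10.53 CPM in parthenotes (SD, n = 31), with a lowest value of 0, a median of 8.24 and a highest of 39.4 CPM. The 8 uniparental 1PN embryos of C57BL/6 xJF1/Ms averaged 1.77 ± 2.18 CPM and had a median of 0.546 and a highest value of 5.26 CPM, so that all 8 lay below the parthenote median. The 11 biparental 1PN embryos averaged 3.91 ± 7.28 CPM, with a median of 1.09 and a highest value of 24.7 CPM. The 43 2PN embryos averaged 1.67 ± 3.25 CPM, with a median of 0.113 and a highest value of 13.1 CPM. Parthenotes and 2PN embryos overlapped more than for Perp: 12 of 31 parthenotes were above the highest 2PN embryo and 29 of 31 above the 2PN median.

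The 4 uniparental 1PN embryos of JF1/MsxC57BL/6 held 0, 1.14, 2.49 and 3.92 CPM of Krt8, and the 3 biparental 1PN embryos 0, 0.339 and 1.87 CPM. The 21 2PN embryos averaged 3.49 ± 7.48 CPM, with a median of 0.127 and a highest value of 30.1 CPM. By means the order of Krt8 was parthenotes, biparental 1PN of C57BL/6 xJF1/Ms, 2PN of JF1/MsxC57BL/6, uniparental 1PN of JF1/MsxC57BL/6, uniparental 1PN and 2PN of C57BL/6 xJF1/Ms, and biparental 1PN of JF1/MsxC57BL/6. Again each step was smaller than the SD of the higher group. The place of the biparental 1PN embryos of C57BL/6 xJF1/Ms rested on embryo 9, without which their mean was 1.83 CPM.

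Krt18 was the member with the smallest distance between parthenotes and 2PN embryos of C57BL/6 xJF1/Ms, and it was nearly without counts in uniparental 1PN embryos. It averaged 6.58 ± 6.51 CPM in parthenotes (SD, n = 31), with a lowest value of 0, a median of 5.66 and a highest of 31.4 CPM. Among the 8 uniparental 1PN embryos of C57BL/6 xJF1/Ms 1 held 0.532 CPM, from 2 counts, and 7 held none. The 11 biparental 1PN embryos averaged 1.73 ± 2.87 CPM with a highest value of 8.15, and the 43 2PN embryos 1.82 ± 3.37 CPM with a highest value of 16.95, each with a median of 0. Of 31 parthenotes 2 were above the highest 2PN embryo, 25 were above the 2PN median of 0 and 25 were above the highest uniparental 1PN embryo.

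In JF1/MsxC57BL/6 Krt18 had no count in the 4 uniparental and the 3 biparental 1PN embryos, and averaged 1.09 ± 3.08 CPM in the 21 2PN embryos, of which 17 were at 0 and the highest was 12.3 CPM. The 2PN embryos held 30 counts, 16 of them in embryo 10, and their pooled level was 0.612 CPM with that embryo and 0.293 CPM without it. With 3 counts over the whole group taken as the floor, 0.305 CPM in uniparental and 0.329 CPM in biparental 1PN embryos, a lower level in the 1PN embryos was therefore not detectable at this depth without that library. By means the order was parthenotes, 2PN and biparental 1PN of C57BL/6 xJF1/Ms, 2PN of JF1/MsxC57BL/6, uniparental 1PN of C57BL/6 xJF1/Ms, and both 1PN groups of JF1/MsxC57BL/6 at 0. Here too each step was smaller than the SD of the higher group.

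The share of embryos in which a gene was counted was highest in parthenotes for all 3 genes, and among the other groups it did not follow the order of the means. Perp had at least 1 count in 30 of 31 parthenotes (96.8%, exact Clopper-Pearson 95% interval 83.3% to 99.9%), in 4 of 8 uniparental 1PN (50%, 15.7% to 84.3%), in 3 of 11 biparental 1PN (27.3%, 6.02% to 61.0%) and in 8 of 43 2PN embryos (18.6%, 8.39% to 33.4%) of C57BL/6 xJF1/Ms. Krt8 was counted in 29 of 31, 6 of 8, 10 of 11 and 22 of 43 embryos of these groups, and Krt18 in 25 of 31, 1 of 8, 5 of 11 and 20 of 43. Krt18 was thus found in 12.5% of uniparental 1PN embryos (0.316% to 52.7%) and in 46.5% of 2PN embryos (31.2% to 62.3%). In JF1/MsxC57BL/6 Krt8 was counted in 75% of uniparental 1PN, 66.7% of biparental 1PN and 52.4% of 2PN embryos, whereas its mean was highest in the 2PN embryos. These intervals treat each embryo as a unit.

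**Figure D2:**
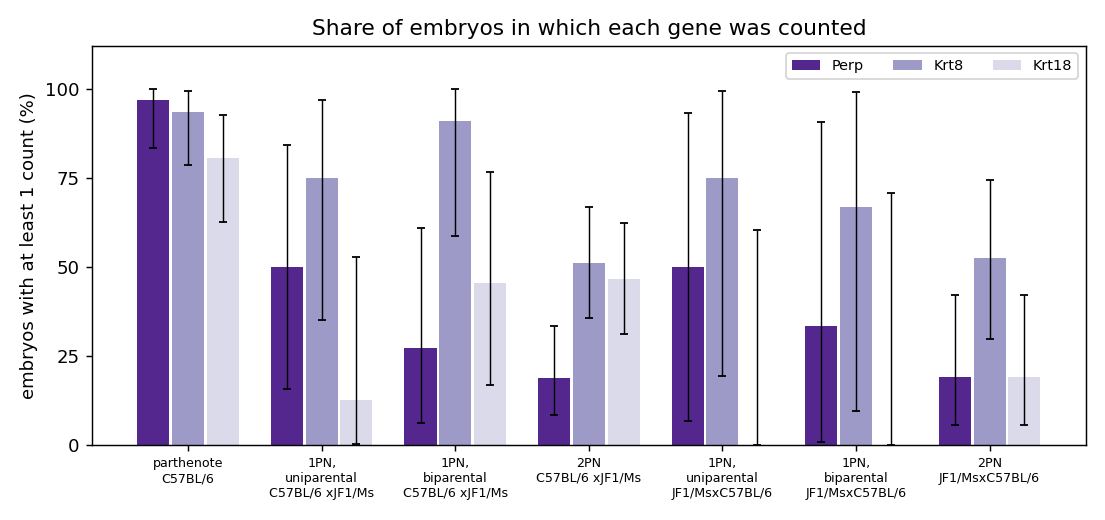
Percentage of embryos with at least 1 count of each gene, by group; bars are shares and error lines the exact 95% intervals. Perp was counted in 96.8% of parthenotes and in 18.6% of 2PN embryos of C57BL/6 xJF1/Ms.

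All 3 genes were counted together in 23 of 31 parthenotes. The same was seen in 1 of 8 uniparental 1PN, 1 of 11 biparental 1PN and 3 of 43 2PN embryos of C57BL/6 xJF1/Ms. The other cross had 0 of 4, 0 of 3 and 1 of 21 such embryos. With at least 10 counts of each gene the numbers were 13 of 31 parthenotes and no embryo of the other groups. No parthenote lacked all 3 genes, against 10 of 43 2PN embryos of C57BL/6 xJF1/Ms.

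Among embryos of 1 group the 3 genes were only loosely related. In parthenotes Perp and Krt8 had a Pearson r of 0.34 (permutation p = 0.0614) and a Spearman rho of 0.32 (p = 0.0779) on log2(CPM + 1) over 31 embryos, and r was 0.21 without the 2 embryos farthest from the median of Perp. Krt8 and Krt18, the keratin partners, had r = 0.16 (permutation p = 0.385) and rho = 0.23 (p = 0.215) in parthenotes, and r = 0.039 without the 2 embryos farthest in Krt8. In the 43 2PN embryos of C57BL/6 xJF1/Ms the keratin partners had r = 0.36 (permutation p = 0.0187) and rho = 0.34 (p = 0.0295), with 0.28 when the 2 farthest were left out; Krt8 was at 0 in 21 and Krt18 in 23 of these embryos. In the 21 2PN embryos of JF1/MsxC57BL/6 r was 0.61 (permutation p = 0.0105), rho 0.32 (p = 0.160) and r 0.50 without the 2 farthest. Of 27 relations computed none passed 0.05 after Benjamini-Hochberg adjustment, and the adjusted permutation p of r was 0.174, 0.415, 0.126 and 0.0949 for those 4. The family also held each gene against the mean of oocyte-derived transcripts and of 2-cell stage transcripts, where the smallest adjusted p was 0.0949, for Krt18 and the 2-cell mean in parthenotes and in 2PN embryos of C57BL/6 xJF1/Ms. In parthenotes r was 0.45 (permutation p = 0.0104), rho 0.42 (p = 0.0180) and r 0.38 without the 2 farthest. In the 2PN embryos r was 0.40 (permutation p = 0.00907), rho 0.23 (p = 0.146) and r 0.17 without the 2 farthest, so that this relation rested on those embryos.

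**Figure D3:**
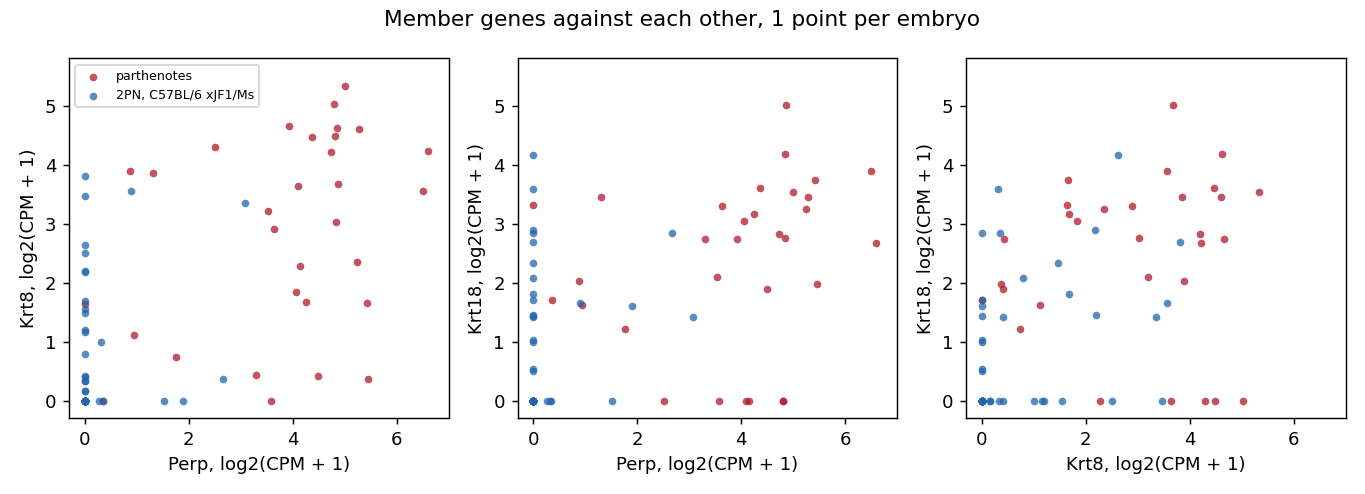
Each pair of genes, in log2(CPM + 1), for parthenotes and 2PN embryos of C57BL/6 xJF1/Ms; points are embryos. Both genes were counted in 28, 24 and 24 of 31 parthenotes for Perp with Krt8, Perp with Krt18 and Krt8 with Krt18, and in 4, 4 and 12 of 43 2PN embryos, and the other embryos lie on an axis; within parthenotes the correlations are 0.34, 0.21 and 0.16.

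Fold changes were taken from 1 edgeR fit of the means of the 7 groups, in which all 3 genes passed the filter on low counts. Parthenotes against 2PN embryos of C57BL/6 xJF1/Ms gave log2 fold changes of 5.36 ± 0.58 for Perp, 2.49 ± 0.58 for Krt8 and 1.59 ± 0.58 for Krt18 (SE). Uniparental 1PN against the same 2PN embryos gave 2.03 ± 0.76 for Perp and -0.16 ± 0.96 for Krt8. Krt18 had 2 counts in the uniparental 1PN embryos and 286 in the 2PN embryos, a ratio of pooled CPM of 0.0419 with a counting interval of 0.00505 to 0.153. Parthenotes against uniparental 1PN gave 3.34 ± 1.07 for Perp and 2.66 ± 1.16 for Krt8, and for Krt18 a ratio of 89.6 (24.7 to 741) from 639 and 2 counts. The counting intervals pool reads over embryos and leave out the spread between embryos. In the fit Krt18 stood at -4.26 ± 1.37 in uniparental 1PN over 2PN embryos and at 5.86 ± 1.49 in parthenotes over uniparental 1PN embryos (SE). All comparisons of this paragraph share samples. Perp was high in parthenotes and intermediate in uniparental 1PN embryos, Krt8 was high in parthenotes and averaged 1.77 CPM in uniparental 1PN and 1.67 CPM in 2PN embryos, and Krt18 had its lowest level in uniparental 1PN embryos. The fitted value of Krt8 in uniparental 1PN embryos changed sign with the scaling, to 0.11 with median-ratio size factors in place of TMM factors.

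**Figure D4:**
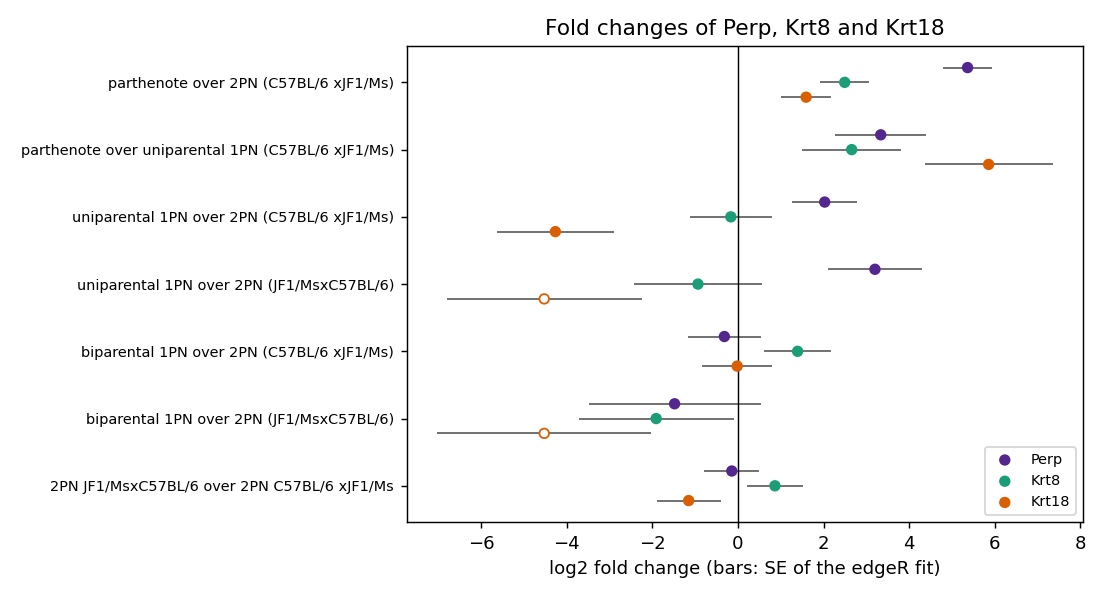
Log2 fold changes of the 3 genes from the edgeR fit, first group of each label over the second, with the SE as the error line. Hollow points have no count in the first group, so that the fitted value depends on the prior count and is no bound. Perp stands at 5.36 in parthenotes over 2PN embryos and Krt18 below 0 in both comparisons of uniparental 1PN with 2PN embryos.

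The uniparental 1PN embryos of JF1/MsxC57BL/6 took no part in choosing the genes. With only these embryos and their 2PN embryos Perp and Krt18 did not pass the filter on low counts, so they entered the test through other groups, among them the parthenotes in which they were high, and no count over the 3 genes is read. Over all 24380 genes 11% were called higher and 20.7% lower. For Perp the log2 fold change over 2PN embryos was 3.20 ± 1.10 (SE; edgeR quasi-likelihood test, adjusted p = 0.0182), and 2 of 4 embryos were above the 2PN median of 0. The call rested on 1 embryo, uniparental 1PN embryo 1, with 63 counts: without it the log2 fold change was -0.93 (adjusted p = 0.783). Without the 2PN libraries under 1000000 counts it was 4.17 (adjusted p = 0.00172). It was also lost with DESeq2 (adjusted p = 0.101) and limma voom (adjusted p = 0.477), and an exact 2-sided permutation test of the difference in mean CPM, 3.57, gave p = 0.113, 1 of 12 such tests. Krt8 had a log2 fold change of -0.93 ± 1.501 (adjusted p = 0.662) and Krt18, at 0 in the uniparental embryos, did not pass either (adjusted p = 0.114). The 4 uniparental embryos also differed from the 2PN embryos in oocyte-derived transcripts, of which 14 were higher and 2 lower of 39 tested, and in 2-cell stage transcripts, of which 2 were higher and 10 lower of 29. Oocyte-derived transcripts differed in the other cross too. Uniparental 1PN over 2PN embryos of C57BL/6 xJF1/Ms had 15 of 39 higher and 2 lower, where 12.1% of all genes were higher and 10.2% lower. Of 29 2-cell stage transcripts 2 were higher and 3 lower there. In parthenotes over the same 2PN embryos 9 of 39 oocyte-derived transcripts were higher and 5 lower, where 24.8% of all genes were higher and 19.6% lower. The part of these differences in the values of the 3 genes was not tested.

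Biparental 1PN embryos were set against 2PN embryos in each cross. Perp and Krt18 did not pass the filter with the compared groups alone in either cross and were tested because of other groups. The 2PN embryos of C57BL/6 xJF1/Ms were also among the values that chose the genes. The values below are therefore given without a count over the 3 genes, and a p past 0.05 does not show that groups were alike. In C57BL/6 xJF1/Ms, where 0.607% of all genes were called in either direction, the log2 fold changes were -0.32 ± 0.86 for Perp, 1.39 ± 0.77 for Krt8 and -0.02 ± 0.81 for Krt18 (SE; edgeR, adjusted p = 1, 0.868 and 1). The approximate 95% intervals ran from -1.995 to 1.36, from -0.12 to 2.91 and from -1.61 to 1.58. For Krt8 biparental 1PN embryo 9, at 24.7 CPM, set much of the value, which was 0.09 without it. In JF1/MsxC57BL/6, where 0.0369% were called, Perp had 1 count in 1PN and 13 counts in 2PN embryos, 6 of these in embryo 21, a ratio of pooled CPM of 0.413 (counting interval 0.00971 to 2.75; edgeR adjusted p = 0.781). Krt8 there had a log2 fold change of -1.91 ± 1.81 (adjusted p = 0.655), and Krt18 was at 0 in the 1PN embryos (adjusted p = 0.417). The difference between the crosses in this 1PN effect was tested as an interaction, with adjusted p of 0.882 for Perp, 0.510 for Krt8 and 0.465 for Krt18, where 0.0205% of all genes were called.

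Between 2PN embryos of the reciprocal crosses 40.2% of all genes were called. With these embryos alone none of Perp, Krt8 and Krt18 passed the filter on low counts, and the 2PN embryos of C57BL/6 xJF1/Ms were among the values that chose the genes, so nothing about the 3 genes is read from that share. The log2 fold changes of JF1/MsxC57BL/6 over C57BL/6 xJF1/Ms were -0.14 ± 0.64 for Perp, 0.87 ± 0.66 for Krt8 and -1.15 ± 0.74 for Krt18 (SE; edgeR, adjusted p = 0.889, 0.303 and 0.220). The approximate 95% intervals were -1.39 to 1.11, -0.42 to 2.15 and -2.61 to 0.31. The sign of Perp was not stable, since its mean CPM was higher in JF1/MsxC57BL/6. Without the libraries under 1000000 counts, which include 2PN embryo 21, the log2 fold change of Perp was -1.11 (adjusted p = 0.286). These libraries were also shallower, and 2 of them held under 1000000 counts.

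The genes that Perp and the keratins work with were described from lists. In parthenotes against 2PN embryos of C57BL/6 xJF1/Ms 44.4% of all genes tested were called, 24.8% higher and 19.6% lower, and the median log2 fold change over all genes was 0.19. Of 10 desmosome genes tested 5 were higher and 0 lower, with a list median of 1.17. Dsc2, a desmosomal cadherin, averaged 23.3 CPM in parthenotes and 2.02 CPM in 2PN embryos, a log2 fold change of 3.29 ± 0.55 (SE; edgeR, adjusted p = 3.39e-07). Dsp, the plaque protein desmoplakin that binds keratin filaments, averaged 21.98 and 3.35 CPM in these groups (2.49 ± 0.51, adjusted p = 1.96e-05). The plakophilin Pkp2 and the desmosomal cadherin Dsg2 were also higher, by 1.87 ± 0.48 and 1.75 ± 0.64. Dsg2 was near the floor, at 0.674 CPM in parthenotes and 0.151 CPM in 2PN embryos, where 1 count at the median depth equals 0.259 CPM.

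Of 12 tested keratin linkers and hemidesmosome genes 6 were higher and 3 lower in parthenotes (median 0.61). Eppk1, epiplakin, which binds keratins, averaged 6.49 CPM in parthenotes and 0.304 CPM in 2PN embryos, a log2 fold change of 4.02 ± 0.58 (edgeR, adjusted p = 7.18e-09). The cornified envelope plakin Evpl and the hemidesmosomal collagen Col17a1 were higher by 2.08 ± 0.56 and 2.65 ± 0.58. Of 6 other keratins that passed the filter 1 was higher and 1 lower (median 0.10). The lower one was Krt19, another type I keratin of simple epithelia, with 0.0431 CPM in parthenotes, counted in 1 of 31, and 1.06 CPM in 2PN embryos, counted in 15 of 43 (-3.88 ± 0.74, adjusted p = 8.03e-06). The sign was opposite to that of Krt18. Of 12 other intermediate filament genes 3 were higher and 2 lower (median -0.09).

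Of 11 adherens junction genes 7 were higher and 0 lower in parthenotes (median 0.70). Cdh1, E-cadherin, averaged 55.8 CPM in parthenotes and 24.7 CPM in 2PN embryos (0.92 ± 0.22, edgeR adjusted p = 0.000206), and the adhesion molecule Nectin3 averaged 126 and 52.7 CPM (1.02 ± 0.18). Of 17 tight junction and polarity genes 4 were higher and 0 lower (median 0.27), led by Tjp3, the scaffold ZO-3, with 36.02 CPM in parthenotes and 4.87 CPM in 2PN embryos (2.61 ± 0.34, adjusted p = 1.17e-10). Of 4 tested PMP22 relatives of Perp 3 were higher, namely Tmem47, Emp2 and Emp3, by 1.33 ± 0.53, 0.58 ± 0.23 and 0.85 ± 0.34 (adjusted p = 0.0305, 0.0337 and 0.0354).

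Of 22 tested trophectoderm regulators 11 were higher and 2 lower in parthenotes (median 0.63). Eomes, a T-box factor of the trophoblast lineage, averaged 21.9 CPM in parthenotes and 1.80 CPM in 2PN embryos (3.32 ± 0.50, edgeR adjusted p = 1.67e-08). Gata2 averaged 23.6 and 2.91 CPM (2.74 ± 0.46), and Amot, a junctional regulator of Hippo signalling, 62.97 and 10.51 CPM (2.37 ± 0.39). Nf2, which activates the Hippo kinases, was lower by -1.05 ± 0.14. Tead4 and Cdx2, factors that specify the trophectoderm, are named outside the rule, after their values were seen: Tead4 averaged 12.6 CPM in parthenotes and 28.6 CPM in 2PN embryos (-1.41 ± 0.37, adjusted p = 0.00107), and Cdx2 0.679 and 0.297 CPM (adjusted p = 0.342).

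The p53 pathway, of which Perp is a target, had calls in both directions. Of 34 p53 targets tested 6 were higher and 7 lower in parthenotes (median 0.07), and of 12 p53 family members and regulators 3 were higher and 2 lower (median 0.06). The target Fdxr averaged 11.4 CPM in parthenotes and 2.17 CPM in 2PN embryos (2.09 ± 0.51, edgeR adjusted p = 0.000358), and the target Tigar 106 and 219.8 CPM (-1.29 ± 0.17, adjusted p = 4.87e-10). Trp53 itself, named outside the rule, averaged 61.3 and 60.0 CPM (-0.18 ± 0.20, adjusted p = 0.502). The split of targets depended on the scaling: with median-ratio size factors it was 9 higher and 3 lower, the median of all genes moved to 0.39, and 67.2% of all calls were higher in place of 55.8%. In the other lists named above that scaling added at most 2 higher calls and removed at most 1 lower call.

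**Figure D5:**
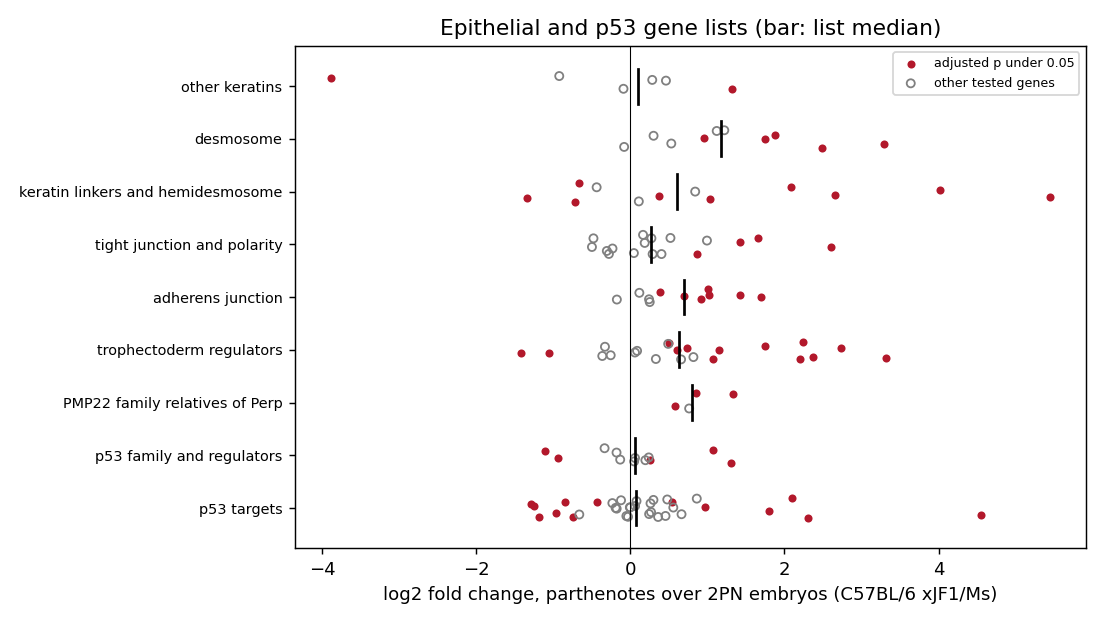
Log2 fold changes of parthenotes over 2PN embryos of C57BL/6 xJF1/Ms for the genes of 9 lists; filled points have an adjusted p under 0.05 and bars are list medians. The desmosome, adherens junction and PMP22 lists have medians of 1.17, 0.70 and 0.81, and the p53 target list of 0.07.

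In uniparental 1PN against 2PN embryos of C57BL/6 xJF1/Ms, where 12.1% of genes were higher and 10.2% lower and the median of all genes was 0.19, 3 of 10 desmosome genes were higher and 0 lower. They were Dsg2, Dsc2 and Dsp, at 3.83 ± 0.87, 2.65 ± 0.73 and 2.03 ± 0.71 (SE; edgeR, adjusted p = 0.000689, 0.00523 and 0.0291). Dsg2 averaged 2.83 CPM in uniparental 1PN embryos and 0.151 CPM in 2PN embryos, where 1 count at the median depth equals 0.259 CPM. Dsp averaged 17.4 CPM in uniparental 1PN embryos and 3.35 CPM in 2PN embryos, and Eomes 16.9 and 1.80 CPM (2.96 ± 0.65, adjusted p = 0.000453). Of 11 adherens junction genes 2 were higher, of 12 keratin linkers 2 were higher, and of 22 trophectoderm regulators 3 were higher and 1 lower. Of 34 p53 targets 1 was higher and 5 lower. Median-ratio size factors made 69.6% of all calls higher in place of 54.2%, moved the median of all genes to 0.41 and called 6 trophectoderm regulators higher. The parthenotes and the uniparental 1PN embryos share these 2PN embryos as controls. Set directly against uniparental 1PN embryos, parthenotes had 0.541% of genes higher and 1.33% lower, and 0 of the 128 tested genes of the keratin, junction, linker, trophectoderm, PMP22 and p53 lists were called by edgeR, 1 by DESeq2 and 5 by limma voom, with 19 at an unadjusted p under 0.05. Over all 24380 genes 3574 had an unadjusted edgeR p under 0.05, and DESeq2 called 458 genes in all and limma voom 692.

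In uniparental 1PN against 2PN embryos of JF1/MsxC57BL/6, with a median of -0.52 over all genes, 1 of 10 desmosome genes was higher and 1 lower, and with median-ratio size factors 3 were higher and 0 lower, while the median of all genes moved to -0.24 and 45.9% of all calls were higher in place of 34.7%. Of 4 tested PMP22 relatives of Perp 1 was higher and 0 lower, with a list median of -1.05. The higher one, Emp2, averaged 126 CPM in these uniparental embryos and 20.5 CPM in 2PN embryos (2.505 ± 0.46, edgeR adjusted p = 6.61e-06). Of 6 other keratins tested 2 were higher and 1 lower, with a list median of -1.26. Krt12 was higher, with 44.5 CPM in uniparental 1PN and 6.70 CPM in 2PN embryos (2.65 ± 0.58, edgeR adjusted p = 0.000148). Krt20 was higher, with 18.3 and 1.40 CPM (3.76 ± 1.04, adjusted p = 0.00291), and Krt10 lower, with 1.28 and 7.38 CPM (-2.53 ± 0.91, adjusted p = 0.0254). Of 12 keratin linkers 0 were higher and 5 lower, and of 22 trophectoderm regulators 2 were higher and 6 lower. Of 11 adherens junction genes 3 were higher and 1 lower, and of 17 tight junction and polarity genes 2 were higher and 3 lower. Tead4 stood at 0.490 CPM in uniparental 1PN embryos and 18.8 CPM in 2PN embryos (-5.68 ± 1.41, adjusted p = 0.000838). Of 34 p53 targets 4 were higher and 14 lower, where 11% of all genes were higher and 20.7% lower. In biparental 1PN against 2PN embryos of either cross 0 of the 128 genes of these lists were called by edgeR, where 0.607% of all genes were called in C57BL/6 xJF1/Ms and 0.0369% in JF1/MsxC57BL/6. In C57BL/6 xJF1/Ms 0 were called by DESeq2 or limma voom and 10 had an unadjusted p under 0.05. Over all 24380 genes there 1659 had an unadjusted edgeR p under 0.05, and DESeq2 called 21 genes in all and limma voom 0. In the other cross 10 were called by DESeq2 and 0 by limma voom, and 23 had an unadjusted p under 0.05. Over all 24380 genes of that comparison 2916 had an unadjusted edgeR p under 0.05, and DESeq2 called 668 genes in all and limma voom 43.

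The genes whose pattern was most like that of each member were ranked by Pearson's r on log2(CPM + 1) over the 121 embryos, among the 7932 genes that averaged 10 CPM or more. This measure carries the difference between the groups. For Perp they were Celf4 and Mex3b, which encode RNA-binding proteins, the phospholipid scramblase gene Plscr1, the forkhead factor gene Foxc1 and Metrnl (r from 0.72 to 0.80); Celf4 averaged 48.5 CPM in parthenotes and 1.03 CPM in 2PN embryos of C57BL/6 xJF1/Ms. For Krt8 they were the adhesion receptor gene Adgrg2, Tmsb15b2, Tmsb15l, the protocadherin gene Pcdh10 and Vegfa (0.65 to 0.67). For Krt18 they were the iron exporter gene Slc40a1, Tmsb15b2, Adgrg2, Tmsb15l and Mycn (0.63 to 0.66). Tmsb15b2 and Tmsb15l are copies of 1 gene family whose reads the counting could split between them. Within the 43 2PN embryos of C57BL/6 xJF1/Ms the leading genes were Pdgfa for Perp (0.58), E2f7 for Krt8 (0.69) and Adora2b for Krt18 (0.72), and Mex3b for Perp (0.54) and the Tmsb15 pair for Krt8 (0.61) were again among the 5. These embryos were part of the 121, so the 2 rankings were not independent. Each r was picked as among the highest of 7932 genes and was not tested. Perp was at 0 in 35 of the 43 embryos.

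Krt8 has an annotated processed copy, Krt8-ps, at chr7:23357094-23358779, and 24 of 121 Krt8 values (19.8%) were not whole numbers, against 2 for Perp and 0 for Krt18. Krt8-ps averaged 0.965 ± 1.16 CPM in parthenotes (SD, n = 31), 1.94 ± 1.78 in uniparental 1PN (n = 8), 1.40 ± 1.49 in biparental 1PN (n = 11) and 1.00 ± 1.32 CPM in 2PN embryos of C57BL/6 xJF1/Ms (n = 43). For the copy, parthenotes and 2PN embryos thus differed by less than the SD of the parthenotes. The same held for Krt8 itself, at 11.02 ± 10.53 and 1.67 ± 3.25 CPM, so this measure does not set the copy apart from Krt8. In JF1/MsxC57BL/6 the copy averaged 2.83 ± 3.72 CPM in uniparental 1PN (n = 4), 4.83 ± 4.44 in biparental 1PN (n = 3) and 1.68 ± 3.29 CPM in 2PN embryos (n = 21). In both 1PN groups of that cross this was above Krt8 itself, which averaged 1.89 CPM in uniparental and 0.738 CPM in biparental 1PN embryos. The copy was also above Krt8 in uniparental 1PN embryos of C57BL/6 xJF1/Ms, at 1.94 against 1.77 CPM. The division of shared reads between them was not given in the sources used here, so low Krt8 values, those of these 1PN groups included, are uncertain.

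Markers of cells that could be carried over from the female tract were read in the same libraries. Counts of markers below are for parthenotes over 2PN embryos of C57BL/6 xJF1/Ms, where 24.8% of all genes were higher and 19.6% lower. Each list had few tested genes. The summed level of 12 oviduct epithelium markers was 585 CPM in parthenotes by the median (189 to 1087) and 104 CPM in 2PN embryos of C57BL/6 xJF1/Ms (12.7 to 680), and 4 of 7 tested were higher. In uniparental 1PN embryos of that cross it was 525 CPM (62.0 to 707). Most of the sum in parthenotes and 2PN embryos came from Cd24a, with 453 and 128 CPM in these 2 groups, and Wfdc2, with 167 and 7.73 CPM. Ovgp1, the oviduct glycoprotein, averaged 6.74 CPM in parthenotes and 4.11 CPM in 2PN embryos, and Pax8 and Sprr2f were at 0 in parthenotes. Of 14 cumulus and granulosa markers 4 of 8 tested were higher, with medians of 36.95 CPM (9.64 to 98.5) in parthenotes and 10.1 CPM (0.331 to 70.7) in 2PN embryos, and Ptx3, Fshr and Pgr were at 0 in parthenotes. Blood and immune markers had medians of 131 CPM (28.6 to 519) in parthenotes and 40.4 CPM (0.949 to 172) in 2PN embryos, with 3 of 6 tested higher and 1 lower. Fibroblast markers had medians of 33.9 CPM (3.19 to 106) in parthenotes and 16.03 CPM (0 to 78.5) in 2PN embryos, with 3 of 4 tested higher and Col1a2, Col3a1, Dcn and Lum at 0 in parthenotes. Of the skin keratinocyte markers, which could carry Perp and desmosome transcripts, 0 of 2 tested were called by edgeR, DESeq2 or limma voom and 0 had an unadjusted p under 0.05; their summed level was 105.1 CPM (17.3 to 251) in parthenotes and 88.3 CPM (2.22 to 518) in 2PN embryos, and Krt1 and Lor were at 0 in parthenotes. In the 2PN embryos of C57BL/6 xJF1/Ms other markers were at 0. They were Pax8, Sftpd and Ltf of the oviduct list and Fshr, Inhba, Inha and Pgr of the cumulus list. Col3a1 and Lum of the fibroblast list and Krt1 and Dsg3 of the keratinocyte list were also at 0 there. Pax8, Fshr, Pgr, Col3a1, Lum and Krt1 were thus at 0 in both groups and do not separate them. The part of carried-over cells in the levels of Perp, Krt8 and Krt18 was not tested.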

How the data were processed

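RNA was measured in single 2-cell embryos with SMART-Seq v4 and Nextera XT libraries, per the labels' protocols. Per the submitters' processing notes, the tools included HISAT2 2.0.5 and featureCounts 2.0.0 and the build was GRCm38. Annotation release, strand setting and handling of shared reads were not given in the sources used here. A deposited table holds the authors' estimated counts per gene, without scaling to depth; 28.4% of its values above 0 were not whole numbers. Of 43421 identifiers 43266 matched a symbol. Of 125 libraries 4 were left out, namely 1 dead and 3 low-quality embryos by label. No 2 libraries of a group agreed within sampling noise (lowest chi-square per gene 16.9).

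Counts were divided by the library total for CPM. For tests they were rounded to whole numbers and fitted in R 4.3.3 with edgeR 4.0.16 (TMM factors, filterByExpr by group, 1 mean for each of 7 groups, quasi-likelihood F test, Benjamini-Hochberg adjustment over 24380 genes, threshold 0.05). No p is given for the members in the comparisons that chose them. Alternatives were DESeq2 1.42.0, limma voom 3.58.1, median-ratio size factors, no filter, the 2 groups alone, a replicate block, and embryos or shallow libraries left out. Correlations used log2(CPM + 1) and 100000 permutations in scipy 1.17.1, and figures matplotlib 3.10.9. Floors are 3 counts over the group. Without molecular identifiers reads are not independent molecules, so intervals and floors state counting error alone. In simulated data the fit recovered larger changes more often than smaller ones, but more of its calls were unchanged genes than the threshold allows, so calls near the threshold are uncertain.

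The members and the gene lists were chosen with earlier results of these data known. The text names the members, up to 4 called genes with the smallest p of each list, and the 5 genes most like each member with a proper symbol and a mean of at least 10 CPM. RefSeq tables of GRCm38.p6 gave coordinates and promoters.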

Additional observations from a re-analysis of the deposited data

Results flagged for a closer look

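In the groups of 4 to 10 embryos, 6 sets of values were examined for an embryo far from the others, and for normally distributed values chance flags about 1 in 20. In sets mostly at 0, such as these, a single embryo with counts is enough to be flagged. Perp in the uniparental 1PN embryos of JF1/MsxC57BL/6 had its highest embryo at 16.7 CPM, and the next stood at 0.653 CPM. Krt18 in the uniparental 1PN embryos of C57BL/6 xJF1/Ms had its highest embryo at 0.532 CPM, from 2 counts, with all the others at 0.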

How the results depend on the processing

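The log2 fold changes of parthenotes over 2PN embryos kept their sign for Perp, Krt8 and Krt18 under every alternative run, and without the 2 parthenotes highest in Perp, a choice made after seeing the data, they were 5.05, 2.47 and 1.55. The same counts chose the genes as higher in parthenotes, so the kept sign is no independent support. Krt8 in uniparental 1PN over 2PN embryos of C57BL/6 xJF1/Ms turned to 0.0877 with DESeq2, 0.62 with limma voom, 0.11 with median-ratio size factors and 0.16 with the replicate block. With limma voom Krt18 was -1.83 in that comparison and 4.16 in parthenotes over uniparental 1PN embryos. Perp in uniparental 1PN over 2PN embryos of JF1/MsxC57BL/6 was 3.40 with DESeq2, 1.24 with limma voom and 3.15 with the replicate block, none past the threshold, and from -0.93 to 3.66 with 1 uniparental embryo left out in turn; the difference in mean CPM was 3.57. Krt8 there was 0.22 with limma voom. In biparental 1PN over 2PN embryos of C57BL/6 xJF1/Ms Perp was 0.31 with limma voom and 0.22 with the block, and Krt18 0.11 with DESeq2, 0.15 with limma voom and 0.0722 with size factors. In JF1/MsxC57BL/6 Perp was 0.75 with the block. Perp between the reciprocal 2PN embryos was 0.20 with DESeq2, 0.85 with limma voom, 0.38 with the block and 0.334 CPM as a difference in means. The cause of these changes was not tested.

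The counts of genes called moved as follows. Uniparental 1PN over 2PN embryos of C57BL/6 xJF1/Ms had 5455 calls and 2017 with the block. Parthenotes over uniparental 1PN had 457, 692 with limma voom, 1760 with no filter, 770 with the 2 groups alone and 25 with the block. Uniparental 1PN over 2PN embryos of JF1/MsxC57BL/6 had 7738, 2924 with the 2 groups alone and 5279 to 7884 with 1 embryo left out. Biparental 1PN over 2PN embryos of C57BL/6 xJF1/Ms had 148, 21 with DESeq2, 0 with limma voom or the block, 652 with no filter, 8 with the 2 groups alone and 41 without embryo 9, a choice made after seeing the data. In JF1/MsxC57BL/6 it had 9, 668 with DESeq2, 43 with limma voom, 136 with no filter, 0 with the 2 groups alone or the block, and 15 to 18 with 1 embryo left out. The reciprocal 2PN embryos had 9810, and 6016 with the 2 groups alone.

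The replicate numbers were not taken to pair embryos, since in each of the 6 comparisons checked some pairs had a correlation below 0. Median correlations of same-numbered pairs ran from -0.0965 to 0.0614 and single pairs from -0.296 to 0.366; 2 of 31 parthenotes, 1 of 8 uniparental 1PN embryos of C57BL/6 xJF1/Ms, 1 of 21 2PN embryos of JF1/MsxC57BL/6 and 0 embryos of the other 3 groups correlated best with their own number, so the block is given only here. With the 2 groups alone 10 fold changes of the members had no value because the gene did not pass the filter. Among the correlations, r turned to -0.0252 for Perp and Krt8 in 2PN embryos of C57BL/6 xJF1/Ms and to -0.116 and -0.109 for Perp with Krt8 and Krt18 in those of JF1/MsxC57BL/6 without the 2 farthest embryos, and rho was -0.100 for Krt8 and the 2-cell mean in 2PN embryos of C57BL/6 xJF1/Ms. Depth limits these results most in JF1/MsxC57BL/6, where 1 count at the median depth of 2PN embryos equals 0.397 CPM.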

Other observations

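Libraries left out of the comparisons were read for the same genes. The 1PN embryo labelled dead held 6.48 CPM of Krt18, from 23 counts, and no count of Perp or Krt8. Of the 2 1PN embryos labelled of low quality, embryo 8 held 5.71 CPM of Perp and 4.38 CPM of Krt8 and embryo 6 held no count of the 3 genes. The 2PN embryo labelled of low quality had 4803 counts in all and none of these genes.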
